A study of Homo sapiens with 4 samples.

Results

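Caspases are proteases that cut other proteins during apoptosis, and a small set of proteins decides when they are switched on. CASP2, CASP8 and CASP9 are initiator caspases, and CASP6 is an executioner caspase that cuts structural proteins such as the nuclear lamins. On the mitochondrial route, cytochrome c binds APAF1, which assembles into the apoptosome and recruits CASP9. XIAP holds CASP9 in check, BIRC2 (cIAP1) is a ubiquitin ligase that mainly acts on signalling below the TNF receptors, and DIABLO (Smac), once released from mitochondria, binds these inhibitors and displaces them. Caspases are made as inactive precursors, so the RNA level of a caspase gene does not measure how much of the protease is active.

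These 8 genes were chosen by symbol, and their symbols occur in 9 of the 58735 genes of the deposited tables, because 2 annotated genes carry the name DIABLO. RNA came from U251 and U87, a pair of long-established lines from human glioblastoma. Both lines have 1 Control library and 1 library of cells given Bru (brusatol, a plant quassinoid), 4 libraries in all. The study describes the sequenced cells as given Bru for 48 h at its IC50, names DMSO as the vehicle of its controls, and gives no dose beside the sequencing. The levels are FPKM, which count the sequenced fragments of a gene relative to its exon length and to the library size.

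With 1 library per condition there is no spread between replicates within a line, and no difference within a line has a replicate check. The fragments behind each FPKM, called reads here, could be recovered as whole numbers, and they add up to between 17083896 and 21453561 per library. Changes are log2 ratios on FPKM + 0.1, and each is followed by the exact 95% interval of the ratio of reads scaled to library size, with no pseudocount. These intervals cover counting error only and compare libraries, not conditions, and in bulk RNA fewer cells of a kind and less RNA per cell cannot be told apart. Of 6 markers of glioma lines, all 6 were above an FPKM of 1 in both U251 libraries, whereas in U87 SOX2 was listed at 0 and 0.0457 and NES at 1.46 and 0.569. Of 9 markers of leukocytes, endothelium, epithelium, neurons and hepatocytes, at most 1 reached an FPKM of 1 in any library. Their summed FPKM was 1.45 to 2.39 in U251 and 6.28 to 7.15 in U87, and their part in the results was not tested.

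In the U251 libraries, BIRC2 and CASP9 had more RNA after Bru, CASP2 and APAF1 had less, CASP6 had slightly less, and XIAP and CASP8 were level within counting error. Scaled to the 75th percentile, without mitochondrially encoded genes or to total reads, the interval of CASP6 held 0 and that of XIAP lay above 0. In U87, none of the 7 genes that passed the filter of a mean FPKM of 1 differed between the Control and the Bru library beyond counting error. With the FPKM as deposited, none of the 7 passed 1.5-fold in either line. Over all 12949 genes past that filter, 11.3% were higher and 15.6% were lower by over 1.5-fold in U251 Bru, and 4.56% were higher and 4.49% lower in U87 Bru. Scaled to the 75th percentile or to the total of recovered reads, the U251 split turned to 14.3% higher and 12.7% lower. BIRC2 and CASP9 were then among the genes higher by over 1.5-fold. DIABLO, the only one under the filter, is described apart, since its annotation overlaps other genes.

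**Figure D1:**
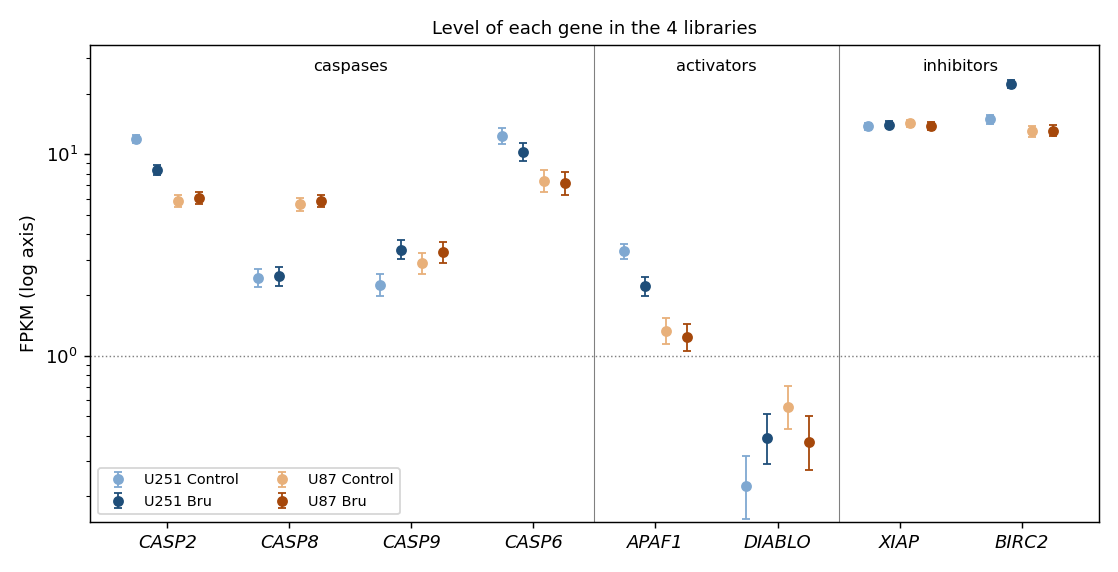
FPKM of each gene (log axis) in the 4 libraries, grouped into caspases, activators and inhibitors. Points are single libraries, bars are exact 95% Poisson intervals of the reads, and the dotted line marks an FPKM of 1, below which only DIABLO lies. BIRC2 stands out in U251 Bru at 22.4, and XIAP lies between 13.8 and 14.3 in all 4 libraries.

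The promoters of the 4 genes that differed most clearly in U251 are shown as sequence, because 2 of them were higher and 2 lower after Bru. Each is the 250 bases before the first start listed by RefSeq on GRCh38.p14, written 5′ to 3′ on the strand of the gene. Capitals mark every match, on either strand, to the GC box GGGCGG, the CCAAT box CCAAT, the TATA box TATAAA, the ETS site CCGGAAG, the E2F site TTTGGCGC, the antioxidant response element TGACNNNGC or the cAMP response half-site TGACG. The motifs were chosen with the sequences in view.
BIRC2 (chr11:102346964-102347213, + strand): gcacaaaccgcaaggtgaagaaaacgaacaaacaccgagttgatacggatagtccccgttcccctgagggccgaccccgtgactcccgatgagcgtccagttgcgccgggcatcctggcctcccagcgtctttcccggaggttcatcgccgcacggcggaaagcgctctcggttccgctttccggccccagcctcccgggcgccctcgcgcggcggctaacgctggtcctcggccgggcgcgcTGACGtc
CASP9 (chr1:15524216-15524465, − strand): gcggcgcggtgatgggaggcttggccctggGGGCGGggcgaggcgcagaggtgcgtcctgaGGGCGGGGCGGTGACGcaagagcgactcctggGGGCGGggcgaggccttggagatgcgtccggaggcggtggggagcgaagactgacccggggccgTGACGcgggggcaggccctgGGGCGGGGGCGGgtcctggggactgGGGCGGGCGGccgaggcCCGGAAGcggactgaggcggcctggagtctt
CASP2 (chr7:143288101-143288350, + strand): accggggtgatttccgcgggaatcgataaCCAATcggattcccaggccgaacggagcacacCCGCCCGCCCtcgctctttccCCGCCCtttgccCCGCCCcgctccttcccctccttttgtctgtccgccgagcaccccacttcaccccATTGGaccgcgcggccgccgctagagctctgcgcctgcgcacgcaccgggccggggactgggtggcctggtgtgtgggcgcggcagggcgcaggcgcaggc
APAF1 (chr12:98645040-98645289, + strand): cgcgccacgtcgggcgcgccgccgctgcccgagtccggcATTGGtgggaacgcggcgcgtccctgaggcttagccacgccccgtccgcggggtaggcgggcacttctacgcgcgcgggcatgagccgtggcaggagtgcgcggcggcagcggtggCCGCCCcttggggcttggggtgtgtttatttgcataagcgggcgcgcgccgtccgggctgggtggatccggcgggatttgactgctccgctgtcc

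The CASP9 window held 8 GC boxes, some of them overlapping, 2 cAMP response half-sites and 1 ETS site, and the CASP2 window held 4 GC boxes and 2 CCAAT boxes. APAF1 had 1 GC box and 1 CCAAT box, and BIRC2 had 1 cAMP response half-site at its end and no GC box. The GC box is common, being present in 42.6% of the 35116 promoter windows of the same length. CCAAT was present in 32.0% of these windows, the half-site in 21.2% and the ETS letters in 8.52%. No match to the TATA box (10.7% of windows), to the E2F site (0.55%) or to the antioxidant response element (10.9%) lay in the 4 printed windows. Their GC content was between 67.6% and 77.6%, against a median of 58.0% over all windows. At the first starts of the genes not printed, it was 74.0% for CASP6, 67.2% for DIABLO, 45.6% for CASP8 and 44.8% for XIAP. CASP9, CASP2 and BIRC2 have 2 listed starts each, so these windows are not their only promoters. At its second start BIRC2 had 1 GC box and 3 half-sites, and CASP2 had 0 GC boxes and 0 CCAAT boxes. CASP9 had 8 GC boxes, 1 CCAAT box, 1 half-site and 0 ETS sites there. GC content at the second starts was 44.0% for CASP2, 73.2% for BIRC2 and 71.6% for CASP9. The motif counts and GC content of the printed windows thus hold for the first starts only. The RefSeq starts are not those of the deposited tables. The printed CASP9 window lies wholly and the printed CASP2, APAF1 and BIRC2 windows partly inside the gene as annotated there. No binding was measured.

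CASP2, an initiator caspase linked to the response to DNA damage and mitotic failure, lies on chromosome 7 from 143288215 to 143307696 on the + strand (GRCh38, ENSG00000106144). In U251 its FPKM was 11.9 as Control (1995 reads) and 8.39 after Bru (1247 reads), and in U87 it was 5.89 (853 reads) and 6.08 (849 reads). U251 Control was the highest of the 4, and the U251 Bru library lay between it and both U87 libraries. Bru against Control was -0.49 on the log2 scale in U251 (-0.60 to -0.40) and 0.05 in U87 (-0.09 to 0.19). The span of CASP2 also holds RN7SL535P, with 1 to 8 reads per library, and RN7SL481P, with 0 to 14, and they share no exon base with it.

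CASP8, the initiator caspase recruited to death receptors such as FAS, lies on chromosome 2 from 201233443 to 201287711 on the + strand (ENSG00000064012). Its FPKM was 2.44 and 2.47 in the Control and Bru libraries of U251 (370 and 332 reads) and 5.63 and 5.86 in those of U87 (737 and 739 reads). It separated the lines and not the treatment, with log2 ratios of Bru to Control of 0.02 in U251 (-0.20 to 0.24) and 0.06 in U87 (-0.09 to 0.21).

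CASP9, the initiator caspase of the apoptosome, lies on chromosome 1 from 15490832 to 15526534 on the − strand (ENSG00000132906). The Control libraries had an FPKM of 2.24 in U251 (248 reads) and 2.88 in U87 (274 reads), and the Bru libraries had 3.36 in U251 (328 reads) and 3.26 in U87 (299 reads). U251 Control was the lowest of the 4 libraries. From Control to Bru the log2 ratio was 0.56 in U251 (0.34 to 0.83) and 0.17 in U87 (-0.06 to 0.42). CELA2B, on the other strand, shares 106 of its 5269 exon bases and had at most 2 reads in a library.

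CASP6, the executioner caspase, lies on chromosome 4 from 109688622 to 109703583 on the − strand (ENSG00000138794). U251 had an FPKM of 12.3 without Bru (502 reads) and 10.3 with it (371 reads), and U87 had 7.38 (259 reads) and 7.19 (243 reads). The U251 ratio of -0.26 (-0.46 to -0.06) lay just outside counting error, and the U87 ratio was -0.04 (-0.30 to 0.22). Of its 1943 exon bases, 105 are shared with MCUB on the other strand, which had between 553 and 895 reads per library. The library kit does not mark strand, so reads on these bases cannot be assigned to one of the 2 genes. AC004067.1, with 3 to 16 reads, lies in the span of CASP6 and shares no exon base.

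APAF1, the scaffold of the apoptosome, lies on chromosome 12 from 98645141 to 98735433 on the + strand (ENSG00000120868). Its FPKM was, from the highest to the lowest, 3.29 for U251 Control (546 reads), 2.21 for U251 Bru (324 reads), 1.33 for U87 Control (190 reads) and 1.24 for U87 Bru (170 reads). Both U87 libraries were below both U251 libraries. From Control to Bru its log2 ratio was -0.55 in U251 (-0.78 to -0.37) and -0.10 in U87 (-0.41 to 0.20). ANKS1B, on the other strand, shares 750 of its 7908 exon bases, all outside the coding sequence of APAF1, and had 12 to 46 reads per library.

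XIAP, a direct inhibitor of CASP9, lies on chromosome X from 123859724 to 123913979 on the + strand (ENSG00000101966). It was at 13.8 FPKM without and 14.0 with Bru in U251 (2607 and 2339 reads), and at 14.3 and 13.8 in U87 (2329 and 2173 reads). These levels were the closest together of the 8 genes. The log2 ratio was 0.02 in U251 (-0.06 to 0.10) and -0.05 in U87 (-0.13 to 0.04), the narrowest intervals of the 8 genes. Of the stretches of 50 bases in its transcripts, 4.37% also occur in transcripts of other genes, among them 141 stretches in the pseudogene XIAPP1, which had 0 reads in each library. XIAP-AS1, RNU6-122P and AL121601.2 lie in its span, share no exon base with it and had at most 6 reads in a library.

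BIRC2, the ubiquitin ligase cIAP1, lies on chromosome 11 from 102347211 to 102378670 on the + strand (ENSG00000110330). U251 had 14.9 FPKM without Bru (1419 reads) and 22.4 with it (1878 reads), and U87 had 13.0 (1066 reads) and 13.1 (1031 reads). The U251 Bru library was well above the other 3. Bru stood to Control at a log2 ratio of 0.58 in U251 (0.48 to 0.68) and 0.01 in U87 (-0.12 to 0.13). Before the pseudocount, BIRC2 was 1.498 times and CASP9 1.497 times as high in U251 Bru as in U251 Control, just under the 1.5-fold line.

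**Figure D2:**
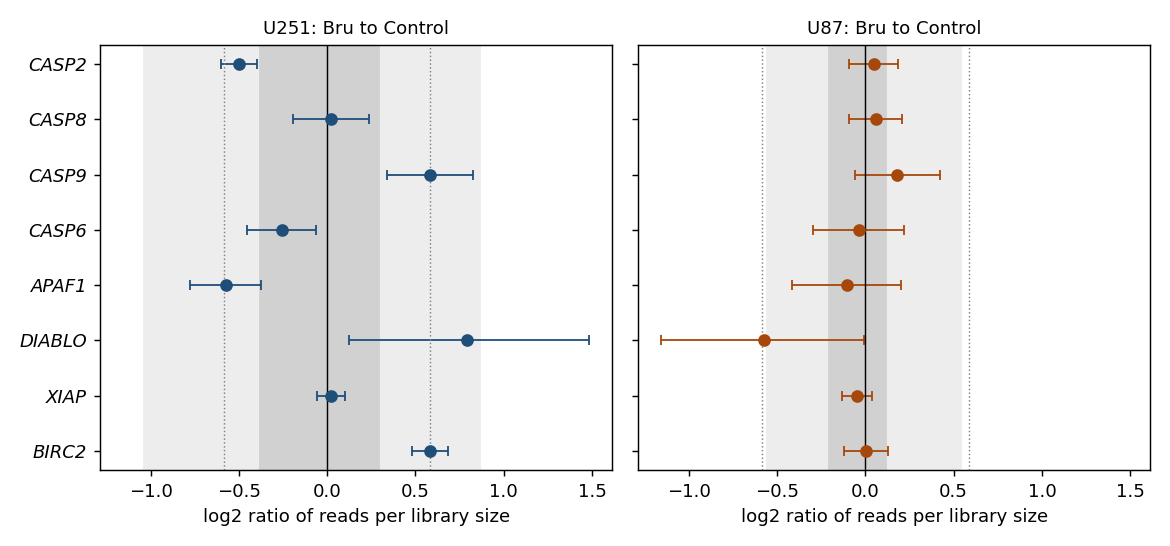
Log2 ratio of Bru to Control of each gene (reads scaled to library size) in U251 (left) and U87 (right). Bars are exact 95% counting intervals, the dark and light grey bands hold the middle 50% and 90% of the 12949 genes, and dotted lines mark 1.5-fold. In U251 the intervals of CASP2, CASP6 and APAF1 lie below 0 and those of CASP9, BIRC2 and DIABLO above it, whereas in U87 only that of DIABLO leaves out 0, with an upper end of -0.01.

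Counted over the 7 genes past the filter, the counting interval left out 0 for 5 in U251 (CASP2, CASP6, CASP9, BIRC2 and APAF1), against 66.6% of all genes tested, and for 0 in U87, against 43.6%. Counting error alone leaves out the variation between cultures, so the interval was also computed with an assumed coefficient of variation of 0.1 between libraries. It then left out 0 for 4 of the 7 in U251 (CASP2, CASP9, BIRC2 and APAF1), against 34.5% of all genes, and for 0 in U87, against 9.24%. At an assumed coefficient of 0.2, none of the 7 was left in U251. No share over all genes is given for U251 at 0.2, so this count is not read as a result about the genes. With line as the block, limma can compare Bru with Control over both lines. The difference between the lines in response gives 1 residual degree of freedom. The empirical Bayes step of limma adds 5.89 prior degrees of freedom from a trend over all genes. The SE of a gene thus rests more on that trend than on its own difference between lines. In this fit, added after the values were seen, the log2 ratio over both lines was 0.37 for CASP9 (SE 0.22), 0.29 for BIRC2 (SE 0.19), -0.33 for APAF1 (SE 0.27) and -0.22 for CASP2 (SE 0.20). The Benjamini-Hochberg adjusted p of limma was between 0.484 and 0.98 for the 7 genes. It was under 0.05 for 0 of the 12949 genes, of which 1835 had an unadjusted p under 0.05, none of the 7 among them. With 4 of the 7 above 0 and 3 below in each line, their median log2 ratio came to 0.02 (U251) and 0.01 (U87), beside -0.03 and -0.04 over all genes. Their median absolute log2 ratio was 0.49 in U251, beside 0.34 over all genes, and 0.05 in U87, beside 0.17.

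The difference between the lines in the Bru to Control ratio was computed for each gene as the log2 ratio in U87 minus that in U251, with the exact conditional interval of the 4 read counts. It was 0.54 for CASP2 (0.37 to 0.72), 0.46 for APAF1 (0.10 to 0.84), -0.57 for BIRC2 (-0.74 to -0.42) and -0.39 for CASP9 (-0.75 to -0.06). These 4 of the 7 genes lay outside counting error, as did 50.9% of all genes by a normal approximation on the log scale. With an assumed coefficient of variation of 0.1, the interval left out 0 for 0 of the 7 and for 13.8% of all genes. The difference was 0.22 for CASP6 (-0.11 to 0.55), 0.04 for CASP8 (-0.23 to 0.30) and -0.07 for XIAP (-0.19 to 0.05).

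The 2 Control libraries were compared to see how the genes differ between the lines without Bru. CASP8 was higher in U87, with a log2 ratio of U87 Control to U251 Control of 1.18 (1.03 to 1.39), and CASP9 was slightly higher at 0.35 (0.11 to 0.61). APAF1 was lower in U87 at -1.25 (-1.55 to -1.07), CASP2 at -0.999 (-1.13 to -0.89), CASP6 at -0.73 (-0.96 to -0.52) and BIRC2 at -0.20 (-0.31 to -0.08). XIAP was level at 0.05 (-0.03 to 0.13). Of the 7, 4 differed by over 1.5-fold in either direction, against 51.9% of all genes, and 2 (CASP8 and APAF1) by 2-fold or more, against 30.4%. The count at 2-fold depended on the setting, being 3 with CASP2 at a pseudocount of 0.01, at the 75th percentile and as TPM, and 0 at a pseudocount of 1. No share over all genes is given at these settings, so these counts are not read as a result about the genes. The counting interval left out 0 for 6 of the 7, against 78.5% of all genes, and at an assumed coefficient of variation of 0.2 for 3 (CASP2, CASP8 and APAF1), against 33.5%.

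The 2 Bru libraries were compared between the lines as well, a comparison added after the values were seen. The log2 ratio of U87 Bru to U251 Bru was 1.21 for CASP8 (1.06 to 1.44), -0.79 for APAF1 (-1.12 to -0.57), -0.77 for BIRC2 (-0.89 to -0.66), -0.51 for CASP6 (-0.76 to -0.28) and -0.46 for CASP2 (-0.59 to -0.34). CASP9, at -0.04 (-0.27 to 0.19), and XIAP, at -0.02 (-0.10 to 0.07), were level within counting error. CASP8, BIRC2 and APAF1 were the 3 of 7 past 1.5-fold, against 50.2% of all genes, and 5 of 7 intervals left out 0, against 76.9%. At a pseudocount of 1, APAF1 no longer passed 1.5-fold, and as TPM CASP6 passed it too and XIAP was lower beyond counting error.

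**Figure D3:**
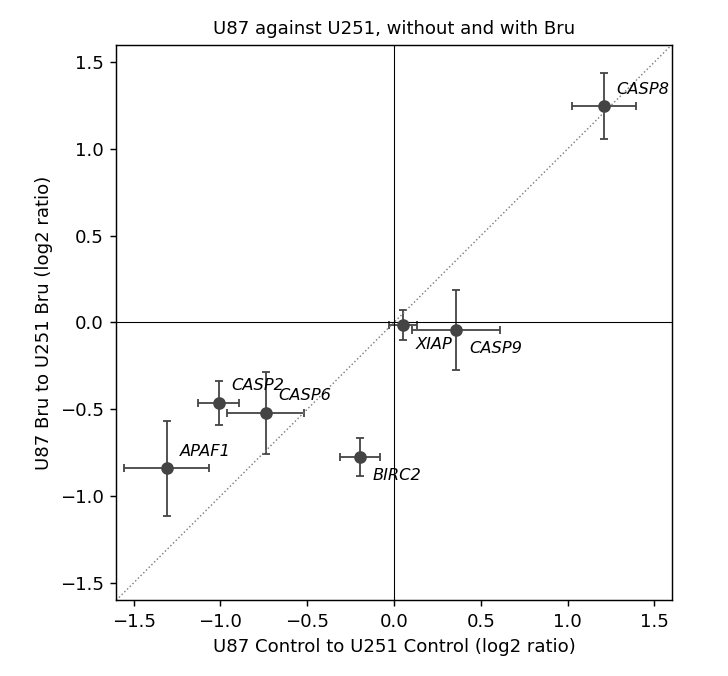
Log2 ratio of U87 to U251 of the 7 genes past the filter in the Control libraries (horizontal axis) and in the Bru libraries (vertical axis), with exact 95% counting intervals. On the dotted diagonal the lines differ equally with and without Bru. CASP6, CASP8 and XIAP lie on it within counting error, CASP2 and APAF1 lie above it, and BIRC2 and CASP9 lie below it.

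The order of the genes by FPKM, which is scaled to gene length, was BIRC2, XIAP, CASP6, CASP2, APAF1, CASP8, CASP9 and DIABLO in U251 Control. Of these neighbours, CASP6 and CASP2 (ratio 1.04, 0.94 to 1.15) and CASP8 and CASP9 (ratio 1.09, 0.922 to 1.28) did not differ beyond counting error. In U251 Bru the first 4 places were the same, and CASP9, CASP8, APAF1 and DIABLO followed, so that CASP9 stood above APAF1. Only CASP8 and APAF1 were neighbours within counting error there, at a ratio of 1.12 (0.957 to 1.31). In both U87 libraries the order was XIAP, BIRC2, CASP6, CASP2, CASP8, CASP9, APAF1 and DIABLO. CASP2 and CASP8 were within counting error of each other in both, at ratios of 1.05 (0.946 to 1.155) and 1.04 (0.939 to 1.15), and XIAP and BIRC2 in U87 Bru, at 1.06 (0.982 to 1.14). The gene length is that of all annotated exons together, such as 7908 bases over 13 transcripts for APAF1 and 5269 over 11 for CASP9. Which transcripts were present is not known, and the intervals leave this out. The order is thus that of the listed FPKM.

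Ratios of FPKM within a library do not depend on the library size, and 3 pairs were chosen after the values were seen. APAF1 to CASP9, the scaffold to its protease, went from 1.47 (1.26 to 1.71) to 0.658 (0.563 to 0.77) between the Control and the Bru library of U251, and from 0.462 (0.382 to 0.558) to 0.379 (0.312 to 0.459) between those of U87. Only in U251 Control was APAF1 above CASP9 per kilobase of all annotated exons, a length that need not be that of the transcripts present. Bru over Control, this ratio was multiplied by 0.449 in U251 (0.36 to 0.559) and by 0.82 in U87 (0.624 to 1.08). XIAP to CASP9, the inhibitor to its target, was 6.14 without and 4.16 with Bru in U251, and 4.96 and 4.24 in U87. It was multiplied by 0.678 in U251 (0.568 to 0.81) and by 0.855 in U87 (0.716 to 1.02). CFLAR (cFLIP), the decoy that competes with CASP8 at death receptors, stood to CASP8 at 0.944 without and 0.719 with Bru in U251, and at 0.553 and 0.587 in U87. That ratio was multiplied by 0.762 in U251 (0.638 to 0.912) and by 1.06 in U87 (0.932 to 1.21).

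DIABLO lies on chromosome 12 from 122207663 to 122226568 on the − strand (ENSG00000184047), and the level listed for it was low in all libraries. U251 was at 0.225 FPKM without Bru (32 reads) and 0.39 with it (49 reads), and U87 at 0.556 (68 reads) and 0.373 (44 reads). With Bru its log2 ratio was 0.59 in U251 (0.12 to 1.48) and -0.47 in U87 (-1.16 to -0.01), and the difference U87 minus U251 was -1.06 (-2.27 to -0.47). The interval is without the pseudocount, which pulls the ratio of so low a gene towards 0. DIABLO thus had ratios on opposite sides of 0 in the 2 lines, from 32 to 68 reads a library.

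Other annotated genes overlap DIABLO, and this bears on what its FPKM measures. The second gene named DIABLO (ENSG00000284934, same strand) shares 2006 exon bases with the first and had 0 reads in 3 libraries and 1 in U251 Bru. AC048338.1, also on the same strand, shares 1139 bases and had 0 reads in each library. B3GNT4, on the other strand, shares 970 bases. From Control to Bru its reads went from 20 to 59 in U251 and from 15 to 11 in U87. These are the directions seen for DIABLO, from few reads. The library kit does not mark strand, so reads on the shared bases cannot be assigned to 1 of the genes. Their part in the DIABLO ratios was not tested. In all, 30.4% of the exon bases of the first DIABLO gene and 60.1% of its coding bases are shared with another gene, and 85.4% and 100% of those of the second. How the submitters' counting treated a fragment that lies on 2 genes is not given in the sources used here. A counter that leaves such fragments out would miss them at these bases, so the FPKM of DIABLO is not read here as its expression level, and its place in the order of levels is that of the listed value only. For the other 7 genes, the shared part of the exons was at most 9.48%, and no coding base was shared.

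Beside these 8 genes, 56 other genes of the caspase pathway were read in 7 lists, and 44 of them passed the filter. With the FPKM as deposited, 3 of the 44 were higher in U251 by over 1.5-fold (BIRC3, TRAF1 and AVEN). Another 4 were lower by over 1.5-fold there (LMNB1, PARP1, BIRC5 and TNFRSF25), and in U87, BIRC3 was higher and 0 were lower. Across scalings and pseudocounts, PARP1 ranged from -0.62 to -0.53 in U251, BIRC5 from -0.61 to -0.52 and TNFRSF25 from -0.62 to -0.49. These genes fell short of 1.5-fold at some settings, whereas BIRC3, TRAF1, AVEN and LMNB1 passed it in U251 at every one. Over all genes past the filter, 11.3% were higher and 15.6% lower in U251, and 4.56% were higher and 4.49% lower in U87. The lists thus did not pass 1.5-fold more often than all genes did with the FPKM as deposited. The median over the 44 was -0.03 (U251) and -0.06 (U87), beside -0.03 and -0.04 over all genes.

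Among the other caspases, CASP1, the inflammatory caspase, had log2 ratios of -0.29 in U251 (-1.002 to 0.32) and 0.16 in U87 (-0.15 to 0.48), both within counting error.

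Of the other IAP genes, 3 of 6 passed the filter, and the median was -0.12 in U251 and -0.05 in U87. BIRC3 (cIAP2), the near relative of BIRC2 and a known target of NF-kB, was at 1.02 and 5.86 FPKM in U251 Control and Bru and at 1.39 and 2.86 in U87. The log2 ratio was 2.41 in U251 (2.28 to 2.77) and 0.99 in U87 (0.78 to 1.299). BIRC5 (survivin), which acts in cell division, was at 53.7 and 35.3 in U251 (-0.61, -0.68 to -0.54) and at 51.1 and 45.4 in U87 (-0.17, -0.24 to -0.10). BIRC6 had log2 ratios of -0.12 (-0.21 to -0.04) and -0.05 (-0.14 to 0.04).

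Of the genes of mitochondrial release and the apoptosome, 5 of 7 passed the filter, with medians of 0.06 in U251 and -0.01 in U87. With the FPKM as deposited, 0 of the 5 passed 1.5-fold in either line. CYCS, which encodes cytochrome c, was at 72.7 and 103 FPKM in U251 (0.50, 0.45 to 0.55) and at 85.3 and 88.6 in U87 (0.05, 0.01 to 0.10). Across scalings and pseudocounts its U251 log2 ratio ranged from 0.494 to 0.586, with the upper end just past 1.5-fold. ENDOG, the mitochondrial endonuclease G, gave 0.08 in U251 (-0.28 to 0.46) and -0.55 in U87 (-0.85 to -0.27). AREL1, a ubiquitin ligase, gave -0.37 (-0.47 to -0.27) and -0.12 (-0.22 to -0.02).

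Among death receptors and their adaptors, 11 of 13 passed the filter, and the median was -0.11 in U251 and -0.01 in U87. With the FPKM as deposited, TNFRSF25 (DR3) was the 1 gene past 1.5-fold. It was lower in U251 at -0.60 (-0.85 to -0.39) and at 0.04 in U87 (-0.27 to 0.34). TNFRSF10B, a TRAIL receptor, was at 39.6 and 36.7 FPKM in U251 (-0.11, -0.17 to -0.05) and at 35.7 and 51.3 in U87 (0.52, 0.46 to 0.59). Its U251 interval held 0 at the 75th percentile, without mitochondrially encoded genes and under total reads. RIPK1, the kinase below TNF receptors, gave -0.20 (-0.33 to -0.08) and -0.33 (-0.51 to -0.16).

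Among the CARD adaptors and decoys, all 6 passed the filter, with medians of 0.44 in U251 and 0.06 in U87. AVEN, which binds APAF1, was at 11.1 and 19.7 FPKM in U251 (0.83, 0.65 to 1.01) and at 9.34 and 10.2 in U87 (0.13, -0.10 to 0.36). BFAR gave 0.47 in U251 (0.35 to 0.59) and 0.13 in U87 (0.04 to 0.22). CRADD, the adaptor of CASP2, gave 0.43 (0.17 to 0.73) and -0.15 (-0.59 to 0.25).

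Among the partners of the IAP ubiquitin ligases, all 6 passed the filter, with medians of 0.13 in U251 and -0.02 in U87. TRAF1, an adaptor at TNF receptors, was at 0.414 and 2.93 FPKM in U251 (2.56, 2.41 to 3.26) and at 4.60 and 5.37 in U87 (0.22, 0.05 to 0.39). TRAF2, which brings BIRC2 and BIRC3 to the receptors, gave 0.38 (0.22 to 0.55) and -0.06 (-0.22 to 0.10). RIPK2 gave 0.12 (-0.04 to 0.28) and -0.14 (-0.26 to -0.02).

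Of the genes whose proteins caspases cut, 9 of 10 passed the filter, with medians of 0.12 in U251 and -0.18 in U87. LMNB1, lamin B1 of the nuclear envelope, was at 82.4 and 31.2 FPKM in U251 (-1.40, -1.47 to -1.33) and at 33.6 and 24.5 in U87 (-0.46, -0.55 to -0.36). PARP1, a DNA repair enzyme, was at 56.9 and 37.0 in U251 (-0.62, -0.67 to -0.57) and at 22.1 and 19.5 in U87 (-0.18, -0.26 to -0.10). GSDME, a pore-forming protein, gave 0.32 in U251 (0.18 to 0.47) and -0.22 in U87 (-0.34 to -0.11).

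The genes of these lists most like BIRC2 in the pair of log2 ratios, over 2 lines, were CYCS (Euclidean distance 0.0939), NOL3 (0.126) and BFAR (0.167). Those most like CASP9 were BFAR (0.104), CYCS (0.135) and NOL3 (0.171). DIABLO, which had the largest absolute log2 ratio of the 8 genes in both lines on FPKM + 0.1, though BIRC2 exceeded it in U251 at a pseudocount of 1 (0.55 against 0.18) and narrowly under 3 scalings, was nearest to CRADD (0.355), GSDME (0.366) and DFFB (0.438), all of them farther away. NOL3, the decoy ARC, had log2 ratios of 0.46 in U251 (0.32 to 0.60) and 0.04 in U87 (-0.13 to 0.21). The same 3 genes lay nearest to BIRC2 and to CASP9, which themselves differ by little in both lines.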

How the data were processed

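The values deposited by the authors are FPKM (fragments relative to gene length and library size), in 1 table for each of the 4 libraries. According to the labels, an NEB Next Ultra kit, which does not mark strand, gave the libraries for paired-end sequencing. The submitters' processing notes name HISAT2 2.0.5, StringTie 1.3.3b, featureCounts 1.5.0-p3, DESeq2 1.16.1 and the build hg18, without roles. Start and end of all 58735 genes equal GENCODE release 29 (GRCh38), which was used here. The counting settings are not given in the sources used here.

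FPKM times gene length was a whole multiple of 1 step for 100% of the values above 0 (tolerance 0.01 reads), which gave the reads per gene. The library size implied by the FPKM was 17406238 to 20974002, which is 0.978 to 1.04 times the reads on genes. A gene of 1 kilobase with 3 reads has an FPKM of 0.143 to 0.172.

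Log2 ratios used FPKM + 0.1, which understates the change of low genes, over genes whose mean FPKM was 1 or more. Ratio intervals were exact Clopper-Pearson intervals at 95%. The interval of the difference between lines was exact and conditional for the 8 genes and a normal approximation for all genes. The reads carry no molecular identifiers, so intervals cover counting error only. Intervals with an assumed coefficient of variation (0.1 or 0.2) are not estimates of biological variation. With 1 library per condition, no test within a line was made. Over both lines, limma 3.58.1 was fitted to log2(FPKM + 0.1) with line and treatment as additive terms, which was added after the values were seen. Its variances were moderated by empirical Bayes with a trend on the mean level. Scripts used Python 3 with scipy and were tested on simulated data.

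The members and lists were chosen with earlier results of these data known. Named are all 8 genes, the 3 genes of each list with the largest mean absolute log2 ratio over the lines, the 3 genes nearest in log2 ratios to the gene with the largest ratio in each line, and genes that overlap the 8. Part of the genes this rule selects are not reported here. By its letter the rule on nearest genes picks DIABLO in both lines, and BIRC2 and CASP9, the largest past the filter, were added. CFLAR and the 3 within-library ratios were chosen after their values were seen. SEPT4, stored as a date in the tables, was matched by its identifier. Alternatives were other pseudocounts, scalings, filters and assumed variation. Promoters are RefSeq windows on GRCh38.p14, and all 8 symbols matched.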

Additional observations from a re-analysis of the deposited data

Results flagged for a closer look

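The Bru to Control ratio of 5 of the 8 genes differed between the lines by the exact interval of the difference itself, which covers counting error only. Of the 7 genes past the filter, 4 did so, against 50.9% of all genes past it by a normal approximation. The log2 ratio in U87 minus that in U251 was 0.54 for CASP2 and 0.46 for APAF1, whose RNA was lower after Bru in U251. It was -0.57 for BIRC2 and -0.39 for CASP9, whose RNA was higher after Bru in U251. For DIABLO, which rests on 32 to 68 reads and overlaps other genes, it was -1.06. The few reads of B3GNT4, which overlaps DIABLO on the other strand, went in the same directions as those of DIABLO. No replicate exists. With an assumed coefficient of variation of 0.1 the interval left out 0 for none of the 7 genes past the filter, against 13.8% of all genes past it. For DIABLO it still left out 0.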

How the results depend on the processing

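The count of genes past 1.5-fold in U251 was 2 (BIRC2 and CASP9) instead of 0 when the log2 ratios were centred on their median or scaled to the 75th percentile, to TPM, without mitochondrially encoded genes or to total reads, and 1 (DIABLO) without a filter or from an FPKM of 0.1 upwards. Under these scalings, 12.1% to 14.3% of all genes tested were higher by over 1.5-fold in U251 and 12.7% to 14.6% were lower. The difference between lines passed 1.5-fold for 1 gene (BIRC2) instead of 0 under the last 4 of these scalings. For this difference, no share of all genes past 1.5-fold is given at any setting. Its counts past 1.5-fold are thus not read as a result about the genes. Without a filter or at 0.1, 1 interval (DIABLO) left out 0 in U87. At a minimum of 5, which left only CASP2, CASP6, XIAP and BIRC2, intervals left out 0 for 3 in U251, 3 between Control and 3 between Bru libraries. There, 2 passed 1.5-fold between Control and 1 between Bru libraries, and the median of the former was -0.46. No share over all genes is given at this minimum, so these counts are not read as a result about the genes. At an assumed coefficient of variation of 0.2, intervals left out 0 for 0 genes in U251 and for 3 between Control libraries (33.5% of all genes). The count was 1 between Bru libraries and 0 for the difference, which was also 0 at 0.1 (13.8% of all genes). At 0.2 no share over all genes is given for U251, the Bru libraries or the difference. Those counts are thus not read as a result about the genes. The list median of caspase substrates in U251 was 0.21, 0.20 and 0.21 under the 75th percentile, without mitochondrially encoded genes and under total reads, and 0.010 at a minimum of 5, and that of the other IAP genes was 0.43 with no filter and -0.36 at a minimum of 5. Under the other pseudocounts and scalings, no direction was reversed for the 8 genes where their counting interval left out 0. Of the 44 list genes tested, none with such an interval turned sign under another scaling, and 7 of 31 in U251 and 5 of 23 in U87 had an interval that held 0 under at least 1 scaling, among them BIRC6, RIPK1 and TNFRSF10B in U251 and AREL1 and RIPK2 in U87. Across scalings and pseudocounts, the U251 log2 ratio ranged from -0.50 to -0.41 for CASP2, -0.57 to -0.42 for APAF1, 0.43 to 0.65 for CASP9 and 0.55 to 0.67 for BIRC2. Without mitochondrially encoded genes, XIAP also differed between the Control libraries beyond counting error. The labels carry no replicate numbers, so libraries could be blocked by line only, and with that block limma called 0 of the 7 genes at an adjusted p under 0.05. No library could be left out of a condition with 1 library. Depth limits DIABLO most, with 32 to 68 reads.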
